A study of Mus musculus with 18 samples.

Results

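Oxidative phosphorylation is carried out by 5 protein complexes of the inner mitochondrial membrane, and the genes described here encode their nuclear subunits. They were taken by name: every gene whose symbol starts with Nduf, Uqcr, Cox4 to Cox8 or Atp5, with Sdha to Sdhd and without Cox8b and Cox7a1. The array read 89 such genes of the 19069 genes with a named probe, and 88 of them entered the tests. They comprise 36 genes of complex I, 4 of complex II, 8 of complex III, 16 of complex IV and 17 of complex V. A further 8 share a prefix without being subunits: Ndufaf1 to Ndufaf7, which help to assemble complex I, and Cox7a2l, a factor that joins complexes III and IV into supercomplexes. Ndufa4 was counted with complex IV, where its protein is found. Cox7b2, a testis isoform of a complex IV subunit, was well above background on 2 arrays only and was not tested. The rule also covers 24 genes that no probe read here, among them Ndufb1 and Ndufa4l2.

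Complexes I and II pass electrons from NADH and succinate to ubiquinone, complex III passes them on to cytochrome c, and complex IV hands them to oxygen. Complexes I, III and IV pump protons, and complex V, the ATP synthase, uses the gradient to make ATP. Thyroid follicular cells spend energy on iodide uptake and on making hydrogen peroxide for hormone synthesis, and thyroid hormone itself raises mitochondrial gene expression in many tissues.

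The study compared thyroids of Glis3KO2 mice, a knockout line of the zinc finger transcription factor Glis3, with thyroids of wild-type (WT) mice, all of the C57BL/6 strain and 1 month old. On a normal diet (NIH31) there were 5 Glis3KO2 and 5 WT mice. On a low-iodine diet (Harlan TD.95125), fed for 6 days, there were 4 Glis3KO2 and 4 WT mice. Weaning was at 3 weeks in all groups, and every thyroid was read on its own single-colour Agilent array. The deleted part of Glis3 and the sex of the mice are not given in the sources used here. The labels do not say whether littermates were used, so p-values measure the spread between these mice.

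A level below is log2 of the deposited processed signal, a background-subtracted intensity, minus the 75th percentile of its array. A difference is the difference of 2 group means of such levels, and ± is its standard error (SE) unless SD is stated. A gene was called when its p from limma, adjusted over 17924 genes by the Benjamini-Hochberg method, was under 0.05. Between 60.1% and 90.6% of probes were well above background on an array, no spot was saturated, and the number of arrays limits the precision. Glis3 was low on the normal diet (−5.46 to −4.16 in Glis3KO2 and −6.08 to −4.79 in WT thyroids). On low iodine it was −4.06 to −1.49 in Glis3KO2 and −1.60 to −0.74 in WT thyroids, a difference of −1.36 ± 0.47 (limma adjusted p = 0.0619); where its probe lies relative to the deletion is not known, so these values do not check the labels. The follicular cell markers Tg, Tshr, Pax8 and Foxe1 were well above background on every array. Of 12 skeletal muscle markers, 10 to 12 were also well above background on each array, at mean levels from −4.26 to 5.54, and so were the 5 brown fat markers, Ucp1 among them, on every array. In whole tissue, fewer cells of a type and less RNA per cell cannot be told apart.

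The promoters of these genes carry short sequence motifs of factors that control mitochondrial genes, and one window of each complex is shown as an example of them. Any link between the motifs and the levels below was not tested. The motifs were NRF1 (GCATGCGC), GABPA (CCGGAAG), YY1 (AAGATGGC), the cAMP response element CRE (TGACGTCA) and ERRA (TCAAGGTCA), each searched on both strands. Each line holds the 250 bases before the gene's start in RefSeq's GRCm38.p6 annotation, written 5′ to 3′ along the gene, with motif matches in capitals.
Ndufa11, chr17:56717512-56717761, plus strand: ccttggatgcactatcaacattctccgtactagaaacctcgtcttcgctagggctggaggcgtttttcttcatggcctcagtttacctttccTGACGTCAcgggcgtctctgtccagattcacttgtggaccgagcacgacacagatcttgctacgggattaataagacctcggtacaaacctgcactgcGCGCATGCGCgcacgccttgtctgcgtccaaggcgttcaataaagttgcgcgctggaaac
Sdhb, chr4:140961021-140961270, plus strand: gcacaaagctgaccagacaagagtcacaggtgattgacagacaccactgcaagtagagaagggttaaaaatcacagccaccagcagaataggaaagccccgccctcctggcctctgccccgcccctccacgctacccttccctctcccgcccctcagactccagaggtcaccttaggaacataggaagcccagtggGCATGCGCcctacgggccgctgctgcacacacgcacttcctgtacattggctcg
Uqcr11, chr10:80406822-80407071, minus strand: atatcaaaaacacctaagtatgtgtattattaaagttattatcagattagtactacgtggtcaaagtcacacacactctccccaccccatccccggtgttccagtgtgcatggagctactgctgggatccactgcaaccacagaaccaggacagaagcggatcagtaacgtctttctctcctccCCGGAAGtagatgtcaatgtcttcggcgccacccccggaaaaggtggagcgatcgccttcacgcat
Cox6a1, chr5:115348959-115349208, minus strand: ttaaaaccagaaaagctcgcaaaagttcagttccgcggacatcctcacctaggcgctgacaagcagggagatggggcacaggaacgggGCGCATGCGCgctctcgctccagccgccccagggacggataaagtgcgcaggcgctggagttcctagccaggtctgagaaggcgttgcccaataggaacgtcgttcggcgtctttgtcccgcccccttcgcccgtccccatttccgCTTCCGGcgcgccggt
Atp5j, chr16:84834977-84835226, minus strand: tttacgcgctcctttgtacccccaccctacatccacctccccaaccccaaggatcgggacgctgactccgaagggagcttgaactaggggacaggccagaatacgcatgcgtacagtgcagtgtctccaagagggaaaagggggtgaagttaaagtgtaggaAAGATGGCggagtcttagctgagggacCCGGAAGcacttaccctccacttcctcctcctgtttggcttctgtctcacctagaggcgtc
Cox7a2l, chr17:83514334-83514583, minus strand: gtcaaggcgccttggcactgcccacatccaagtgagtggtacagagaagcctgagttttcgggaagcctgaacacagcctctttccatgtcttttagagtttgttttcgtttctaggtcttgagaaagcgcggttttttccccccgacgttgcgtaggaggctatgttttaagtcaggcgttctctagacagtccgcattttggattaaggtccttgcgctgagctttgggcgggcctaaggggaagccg
For each complex, the gene with the most different motifs before its start was taken. The Ndufa11 window held an NRF1 run and a CRE, that of Sdhb an NRF1 match, that of Uqcr11 a GABPA match, that of Cox6a1 both NRF1 and GABPA, and that of Atp5j both YY1 and GABPA. The Cox7a2l window was added because that gene is the 1 called between the genotypes below, not for its motifs. It held no match to these letters. At least 1 match was in 38 of the 73 longer windows counted below, so a window without a match is common. The runs in Ndufa11 and Cox6a1 read as NRF1 on both strands.

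RefSeq windows, 250 bases before to 50 after the start, were found for 73 of the 89 genes. NRF1 letters were in 12 of the 73 (16.4%). The share was 3.05% over the windows of all 27025 genes and 4.31% over those of the 15193 genes on the array. GABPA letters were in 18 (24.7%), against 9.93% of all windows and 14.3% of those on the array. YY1 was found in 10 (13.7%, against 3.19% of all and 3.97% on the array). Of those 10, 7 were complex I genes, where complex I supplied 32 of the 73 windows. CRE was found in 4 (5.48%, against 2.03% of all and 2.82% on the array) and ERRA in 2 (2.74%, against 0.466% and 0.336%). At least 1 of the 5 motifs was in 38 of the 73 windows (52.1%), against 16.8% of all windows and 22.8% of those of genes on the array. These matches describe letters only.

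On the normal diet, no oxidative phosphorylation gene passed the test between Glis3KO2 and WT thyroids, and the differences were small. Limma called 0 of 88, where 1.39% of all genes were called (0.513% higher and 0.876% lower in Glis3KO2). At an unadjusted p under 0.05 there were 2, Ndufv1 and Ndufs3, where 13.2% of all genes passed that mark. In 0 of 88 did the genotypes not overlap, against 3.52% of all genes. The median difference was 0.06, beside 0.05 over all genes. Its sign was not stable: it was −0.02 without Glis3KO2 replicate 4, −0.01 without replicate 2, 0.15 without replicate 1, and −0.09 without scaling, where the median of all genes was −0.11. The medians of complexes I, III and V given below were also under 0 without Glis3KO2 replicate 4 (−0.05, −0.01 and −0.09). The 95% interval of the difference lay within a 2-fold change in either direction for 85 of the 88 (96.6%, against 65.0% of all genes), and within 1.5-fold for 62 (70.5%, against 33.4%). The 3 with wider intervals were Cox6a2, Cox8c and Cox4i2, genes of complex IV described below. The median SE was 0.18, beside 0.24 over all genes, and these shares were not matched for brightness.

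**Figure D1:**
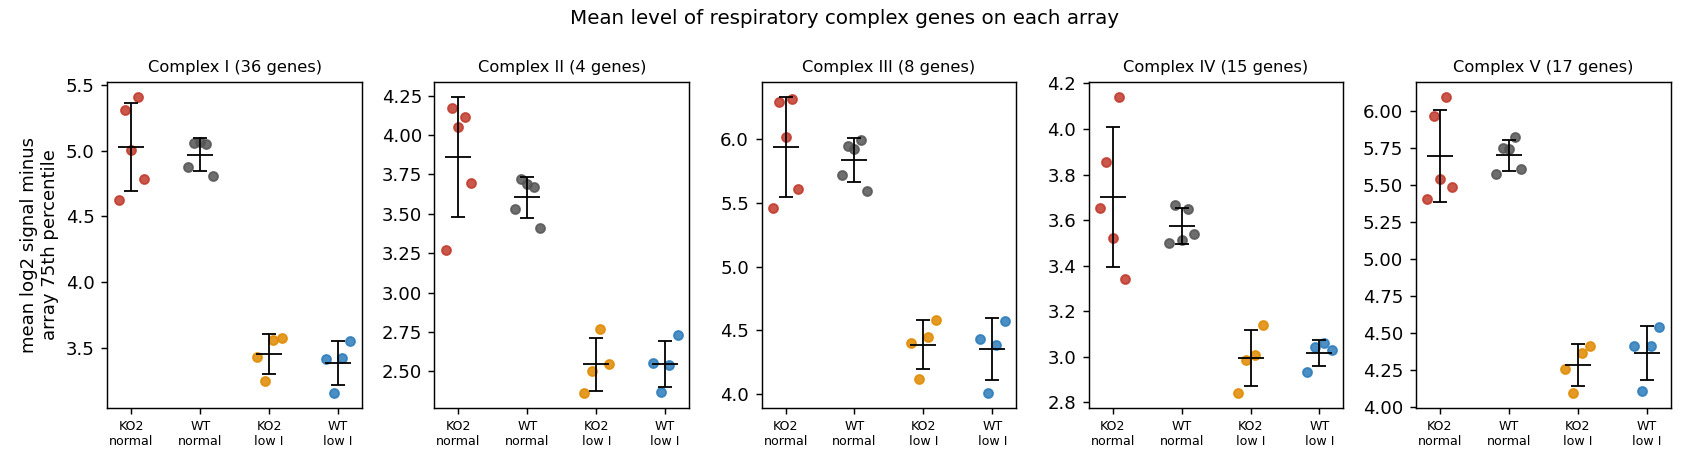
Mean level of the genes of each complex on every array (vertical axis, log2 signal minus the array's 75th percentile), with the groups Glis3KO2 and WT on the normal diet and Glis3KO2 and WT on low iodine from left to right; dots are arrays and bars the mean ± SD. In each of the 5 panels the Glis3KO2 arrays on the normal diet spread more widely than the WT arrays, and both low-iodine means lie lower than both normal-diet means.

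Complex I oxidises NADH and is the largest of the 5. Its mean level over 36 genes was 5.03 ± 0.33 in Glis3KO2 and 4.97 ± 0.12 in WT thyroids (SD, n = 5 each). Its median difference was 0.04, with 23 genes above 0 (63.9%, against 56.6% of all genes). The smallest p belonged to Ndufv1, the subunit that binds NADH and the flavin. Ndufv1 was at 5.19, 5.89, 5.97, 5.79 and 5.48 in Glis3KO2 thyroids, against 5.15, 5.34, 5.43, 5.23 and 5.18 in WT thyroids. The Glis3KO2 arrays lay above all WT arrays except replicate 1, which lay among them; the difference was 0.40 ± 0.16 (limma adjusted p = 0.297). Ndufs3, a core subunit near the ubiquinone site, was at 4.89, 5.29, 4.87, 5.34 and 4.86 in Glis3KO2, against 4.80, 4.43, 4.72, 4.84 and 4.88 in WT. The groups overlapped at the low end of Glis3KO2, and the difference was 0.31 ± 0.15 (limma adjusted p = 0.373). The lowest difference of the complex was that of Ndufa1, an accessory subunit of the membrane arm, at −0.22 ± 0.19.

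Complex II, succinate dehydrogenase, also belongs to the citrate cycle. It had the highest median difference of the 5 complexes, 0.31, with 4 of 4 genes above 0 and 0 called. Sdha, the flavoprotein, was at 2.28, 2.96, 3.07, 3.09 and 2.72 in Glis3KO2 thyroids, against 2.62, 2.60, 2.52, 2.56 and 2.27 in WT thyroids. The Glis3KO2 arrays were above every WT array except replicate 1, which was at the level of the lowest; the difference was 0.31 ± 0.16 (limma adjusted p = 0.427). Sdhb, the iron-sulfur subunit, was at 3.92, 5.06, 4.98, 4.72 and 4.44 in Glis3KO2, against 4.06, 4.49, 4.49, 4.36 and 4.10 in WT, a difference of 0.33 ± 0.20 (limma adjusted p = 0.514). Of the membrane anchors, Sdhd differed by 0.31 ± 0.17 and Sdhc by 0.09 ± 0.18. In Sdha, Sdhb and Sdhd alike, Glis3KO2 replicate 1 was the lowest of its group.

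In complex III, 5 of 8 genes were above 0 (62.5%, against 56.6% of all genes), with a median of 0.11. The Rieske iron-sulfur protein Uqcrfs1, which had the smallest p, was at 4.50, 5.28, 5.04, 5.20 and 4.83 in Glis3KO2, against 4.65, 4.95, 4.84, 4.86 and 4.51 in WT, and the difference was 0.21 ± 0.17 (limma adjusted p = 0.680). The core proteins Uqcrc1 and Uqcrc2 differed by 0.28 ± 0.24 and 0.17 ± 0.20. The small subunits Uqcrq, Uqcr11 and Uqcr10 lay between −0.07 and 0.05.

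In complex IV, 13 of 15 genes were above 0 (86.7%, against 56.6% of all genes) and the median was 0.12. In complex V, 10 of 17 were above 0 (58.8%) and the median was 0.01. Atp5a1, the alpha subunit of the catalytic head and the complex V gene with the smallest p, was at 5.75, 6.22, 6.13, 6.50 and 5.94 in Glis3KO2, against 5.88, 5.87, 5.92, 5.81 and 5.65 in WT. The Glis3KO2 arrays exceeded all WT arrays except replicate 1, which lay among them, a difference of 0.28 ± 0.15 (limma adjusted p = 0.428). Its partner in the head, the beta subunit Atp5b, differed by 0.09 ± 0.13. At the other end of complex V stood Atp5k, a small subunit that holds ATP synthase dimers together, at −0.22 ± 0.26.

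The spread among Glis3KO2 mice on the normal diet ran through all complexes together. Averaged over the 88 genes, Glis3KO2 replicates 1 to 5 were at 4.33, 4.91, 4.58, 5.02 and 4.41, against 4.48, 4.66, 4.63, 4.67 and 4.45 in WT replicates 1 to 5. Glis3KO2 replicates 2 and 4 were above their group's mean in all 5 complexes, and replicates 1 and 5 were below it in all 5. Within slides 1, 2 and 3, each of which held both genotypes, the median difference of the 88 genes was 0.42, 0.13 and −0.22. Over all genes it was 0.13, 0.04 and 0.01. Complex II gave 0.62, 0.42 and −0.09, complex I 0.46, 0.11 and −0.23, and complex V 0.38, 0.06 and −0.20. The sign on slide 3 was opposite to that on slides 1 and 2 in the 88 genes and in each of these complexes. Slide 1 held 1 array of each genotype and slides 2 and 3 held 2 of each, and Glis3KO2 replicate 2 lay on slide 1, replicates 3 and 4 on slide 2 and replicates 1 and 5 on slide 3.

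Markers of brown fat, a tissue dense in mitochondria that lies near the thyroid, moved with these levels. The mean of the 5 markers was −1.18, 3.13, 2.94, 3.36 and 2.02 in Glis3KO2 replicates 1 to 5, against 1.46, 2.51, 2.39, 2.07 and 0.82 in WT replicates 1 to 5. Replicates 2 and 4 of Glis3KO2 had the highest values and replicate 1 the lowest, as for the oxidative phosphorylation genes. Skeletal muscle markers were at 4.41, 3.96, −4.26, 5.54 and 0.32 in Glis3KO2, against −2.44, 4.01, 1.22, −3.27 and −0.38 in WT. They were high in Glis3KO2 replicate 1, where the oxidative phosphorylation genes were lowest. In Glis3KO2 replicates 2 and 4, where those genes were highest, the muscle markers were high too. Thymus and T cell markers averaged −3.70 ± 1.23 in Glis3KO2 and −1.50 ± 1.43 in WT thyroids (SD, n = 5 each), with 3 of 9 called lower (0.876% of all genes were). Follicular cell markers averaged 4.52 ± 0.20 in Glis3KO2 and 3.90 ± 0.24 in WT thyroids (SD), with overlap. Fibroblast markers averaged 2.28 ± 0.36 and 3.08 ± 0.28 (SD), and the genotypes did not overlap (1.69 to 2.58 against 2.74 to 3.39). The part of any of these tissues in the levels was not tested.

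**Figure D2:**
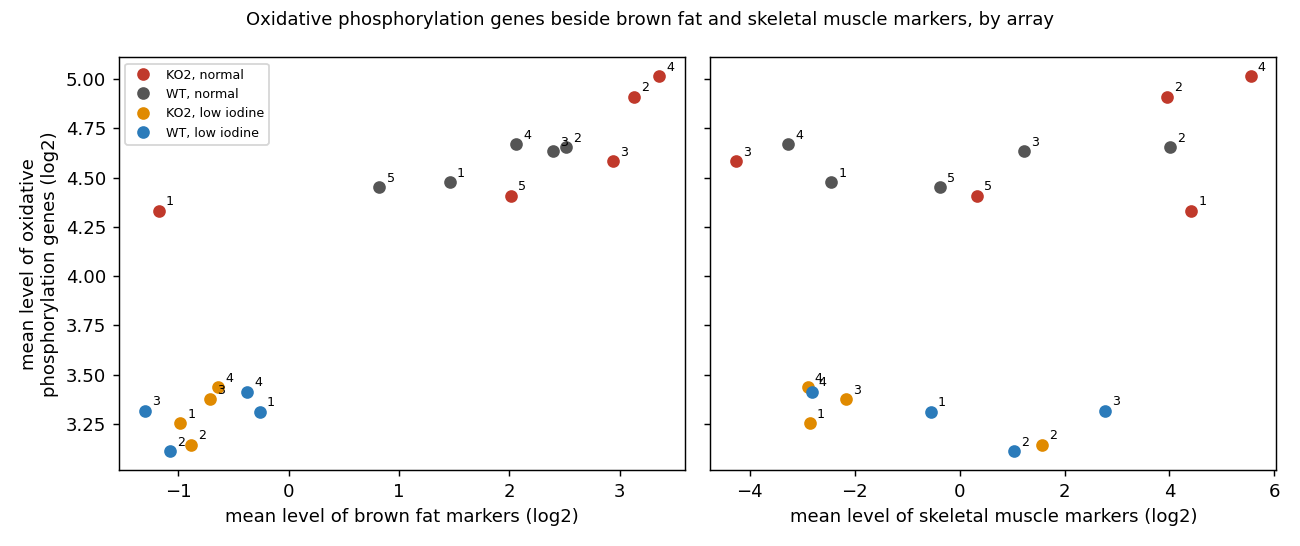
Mean level of the 88 oxidative phosphorylation genes on each array (vertical axis, log2) against the mean level of 5 brown fat markers (left) and 12 skeletal muscle markers (right); colours are the 4 groups and the small numbers are replicates. On the normal diet, Glis3KO2 replicates 2 and 4 are high in both the genes and the brown fat markers and replicate 1 is low in both, while skeletal muscle markers range from −4.26 to 5.54 among Glis3KO2 arrays.

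On the low-iodine diet, Glis3KO2 and WT thyroids differed in 1 of the 88 genes, Cox7a2l, which was higher in Glis3KO2. In the same comparison limma called 15% of all genes, 7.81% as higher and 7.18% as lower. At an unadjusted p under 0.05 there were 12 (9 higher and 3 lower), where 28.2% of all genes passed that mark. The genotypes did not overlap in 4 of 88 genes (4.55%, against 19.7% of all genes). The median difference was 0.01, beside −0.02 over all genes. That background varied with brightness: in 10 equal bins of all genes the median was −0.36 in the dimmest and 0.16 in the brightest. The brightest bin held 67 of the 88 genes, whose median was 0.03, under that of their bin. The 95% interval lay within a 2-fold change for 82 of the 88 (93.2%, against 50.0% of all genes) and within 1.5-fold for 38 (43.2%, against 16.8%). The median SE was 0.21, beside 0.27 over all genes, and the shares were not matched for brightness. By complex, the median difference was 0.05 for I, −0.01 for II, 0.02 for III, −0.02 for IV and −0.03 for V.

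**Figure D3:**
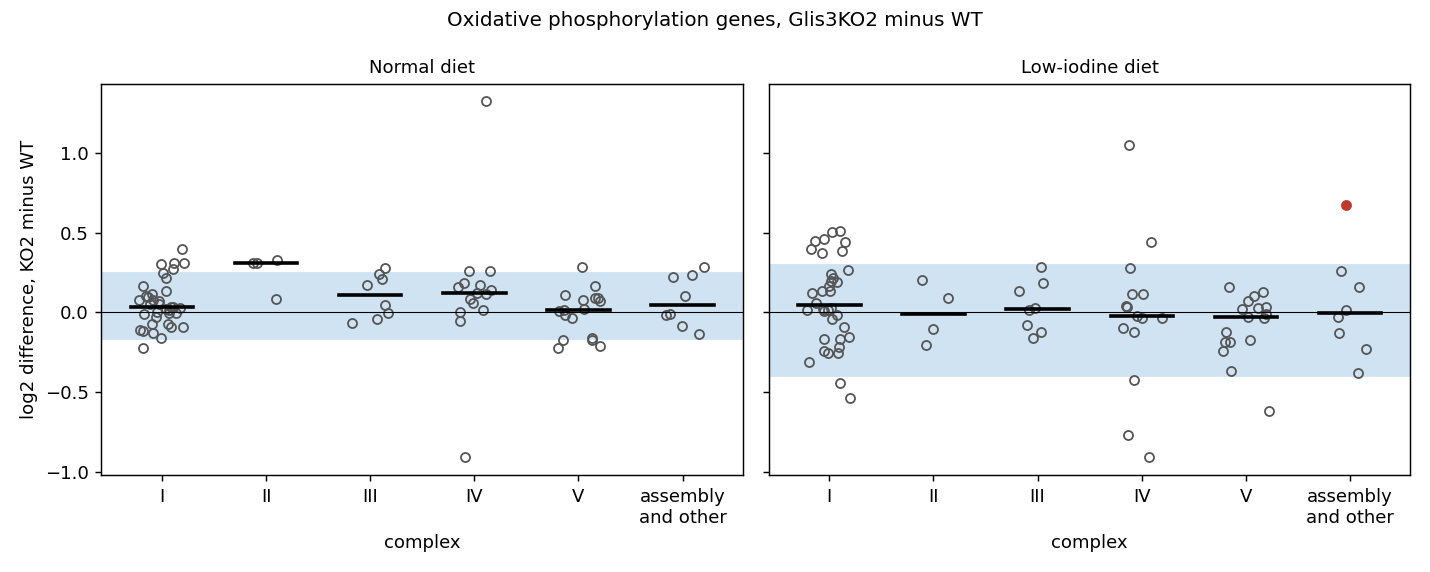
Difference of each gene between Glis3KO2 and WT thyroids (vertical axis, log2, Glis3KO2 minus WT) by complex, on the normal diet (left) and on low iodine (right). Circles are genes, filled where limma's adjusted p is under 0.05, black bars are medians and the blue band is the interquartile range of all 17924 genes; the 1 filled circle is Cox7a2l on low iodine.

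Cox7a2l was at 0.52, 1.04, 0.51 and 1.25 in Glis3KO2 thyroids on low iodine, against 0.12, −0.02, 0.61 and −0.08 in WT thyroids. Glis3KO2 replicates 2 and 4 were above all WT arrays, while replicates 1 and 3 were below WT replicate 3. The difference was 0.67 ± 0.20, or 1.59-fold (limma adjusted p = 0.0310). Within slides 4 and 5 it was 0.83 and 0.51. C57BL/6 mice are known to carry a shortened form of this protein. The call did not hold without WT replicate 1, 2 or 4 (limma adjusted p = 0.0628, 0.0765 and 0.0894) or without Glis3KO2 replicate 2 or 4 (0.0782 and 0.106), nor with median scaling (0.0820) or without scaling (0.338). On the normal diet the same gene was at 3.91, 3.30, 3.81, 3.88 and 3.93 in Glis3KO2, against 3.67, 3.87, 3.79, 3.73 and 3.87 in WT, a difference of −0.02 ± 0.18.

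In complex I, the differences on low iodine spread to both sides, from −0.53 to 0.51 by the brightest probe of each gene. Other probes went further. The second probe of Ndufab1 gave −1.47 ± 0.37, against −0.26 ± 0.18 for its brightest. Another probe of Ndufv3 gave 0.55 ± 0.16, against −0.09 ± 0.16 for its brightest. Ndufs7, a core subunit that carries the last iron-sulfur cluster before ubiquinone, had the smallest p. It was at 3.58, 2.90, 3.31 and 3.71 in Glis3KO2, against 2.90, 2.70, 2.79 and 3.06 in WT. The Glis3KO2 arrays were above all WT arrays except replicate 2; the difference was 0.51 ± 0.18 (limma adjusted p = 0.0705). Among other nuclear core subunits, Ndufv1 (0.44 ± 0.18) and Ndufs3 (0.40 ± 0.16) also lay above 0, and Ndufs1 was at 0.13 ± 0.23. Ndufs8, another iron-sulfur subunit next to Ndufs7, lay below 0: it was at −0.36, 0.33, 0.52 and 0.23 in Glis3KO2, against 0.60, 0.70, 0.77 and 0.78 in WT. All Glis3KO2 arrays were under all WT arrays, with a difference of −0.53 ± 0.22 (limma adjusted p = 0.112). Ndufv2, the partner of Ndufv1 in the NADH-binding module, was also below 0, at −0.44.

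Among the accessory subunits of complex I, Ndufa6 was at 3.28, 2.95, 2.89 and 3.40 in Glis3KO2, against 2.78, 2.41, 2.57 and 2.75 in WT, and the groups did not overlap. Its difference was 0.50 ± 0.20 (limma adjusted p = 0.109). Ndufc2, a subunit of the membrane arm, was at 4.69, 4.29, 4.47 and 4.79 in Glis3KO2, against 4.26, 4.01, 4.19 and 4.29 in WT. All 4 Glis3KO2 arrays reached or exceeded the highest WT array, by 0.37 ± 0.17 in the mean (limma adjusted p = 0.152). Ndufs1, Ndufs3, Ndufs8, Ndufv2, Ndufv3, Ndufab1, Ndufa6 and Ndufc2 were named here after their values were seen.

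In the other complexes no gene was called on low iodine. Sdhd, a membrane anchor of complex II, had that complex's smallest p: it was at 4.22, 4.16, 4.46 and 4.33 in Glis3KO2, against 4.51, 4.36, 4.53 and 4.57 in WT, a difference of −0.20 ± 0.19 (limma adjusted p = 0.553). In complex III it was Uqcrc2, a core protein, at 4.85, 4.35, 4.52 and 4.92 in Glis3KO2, against 4.45, 3.99, 4.43 and 4.63 in WT, a difference of 0.28 ± 0.22 (limma adjusted p = 0.469). In both genes the genotypes overlapped. In complex V it was Atp5g1, 1 of 3 genes for the same ring subunit. Atp5g1 was at 0.68, 1.09, 1.30 and 0.72 in Glis3KO2, against 1.54, 1.30, 1.83 and 1.60 in WT. Every Glis3KO2 array was at or under the lowest WT array, and the difference was −0.62 ± 0.25 (limma adjusted p = 0.108). For the 88 genes as a whole the sign differed between the slides of this comparison, with median differences of 0.18 on slide 4 and −0.14 on slide 5. Over all genes the medians on these slides had the opposite signs, −0.13 and 0.11.

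**Figure D4:**
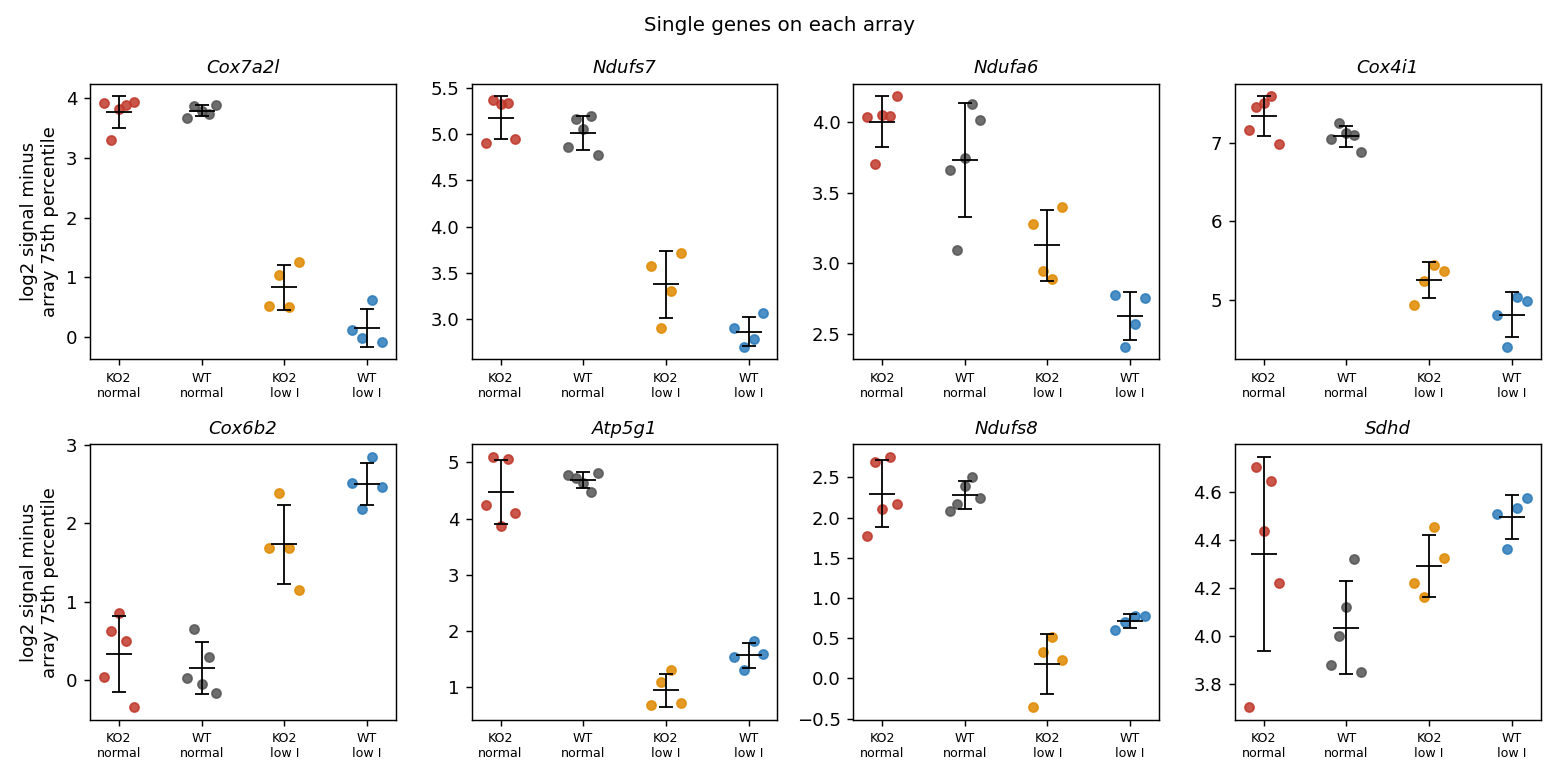
Level on each array (vertical axis, log2 signal minus the array's 75th percentile) of 8 genes in Glis3KO2 and WT thyroids on the normal diet and on low iodine, from left to right; dots are arrays and bars the mean ± SD. On low iodine Ndufa6 lies higher and Atp5g1 and Ndufs8 lower in Glis3KO2 than in WT without overlap, while Cox7a2l overlaps through WT replicate 3.

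Whether the genotype difference itself changed between the low-iodine and normal-diet arrays was tested as an interaction, low iodine minus normal diet. In this contrast diet cannot be told apart from slide, scanner model and software release. Limma called 0 of 88, where 1.22% of all genes were called (0.357% above 0 and 0.865% below), and 3 had an unadjusted p under 0.05, where 14.3% of all genes did. These were Cox7a2l (0.69 ± 0.27, limma adjusted p = 0.240), Cox6b2 (−0.95 ± 0.38, adjusted p = 0.256) and the complex I assembly factor Ndufaf1 (−0.45 ± 0.20, adjusted p = 0.309). The smallest p of the other complexes belonged to Ndufa7 of complex I (0.46 ± 0.23), Sdhd of complex II (−0.51 ± 0.25), Uqcrb of complex III (−0.23 ± 0.37) and Atp5o of complex V (−0.35 ± 0.21). For Sdhd the genotype difference was −0.20 on low iodine and 0.31 on the normal diet. The interaction median was 0.02 for complex I, −0.20 for II, −0.09 for III, −0.07 for IV and −0.02 for V, beside −0.04 over all genes. Of the 4 complex II genes 0 were above 0, against 46.6% of all genes. In the brightest of 10 equal bins of all genes the interaction median was 0.13, beside −0.02 for the 67 oxidative phosphorylation genes in it.

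Several subunits of complex IV come as a common form and a form tied to a tissue. Cox4i1, the common form of subunit 4, was at 7.16, 7.46, 7.51, 7.60 and 6.99 in Glis3KO2 on the normal diet, against 7.05, 7.26, 7.13, 7.10 and 6.89 in WT, a difference of 0.26 ± 0.16. On low iodine it was at 4.93, 5.24, 5.45 and 5.37 in Glis3KO2, against 4.80, 4.4, 5.04 and 4.99 in WT, a difference of 0.44 ± 0.18 (limma adjusted p = 0.109). The groups overlapped on both diets. Cox4i2, known from lung and induced by low oxygen in cell culture, was dim: well above background on 2 Glis3KO2 and 2 WT arrays of the normal diet and on all 8 low-iodine arrays. It was at −4.83, −5.53, −5.76, −5.01 and −7.34 in Glis3KO2, against −6.58, −5.73, −6.14, −5.72 and −5.59 in WT on the normal diet. On low iodine it was at −2.70, −3.26, −3.12 and −2.93 in Glis3KO2, against −3.31, −1.95, −3.15 and −3.21 in WT.

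Cox6a2, the heart and skeletal muscle form of subunit 6a, varied widely between the arrays of every group. It was at 4.51, 3.21, −0.95, 4.59 and 1.73 in Glis3KO2, against 5.03, 3.85, 2.10, 2.12 and 4.51 in WT on the normal diet. On low iodine it was at −2.73, 2.79, −0.74 and −1.09 in Glis3KO2, against −0.36, 0.27, 2.69 and −0.74 in WT. Its lowest array on the normal diet, Glis3KO2 replicate 3, also had the lowest skeletal muscle markers (−4.26), and on low iodine its highest arrays, Glis3KO2 replicate 2 and WT replicate 3, had the highest muscle markers of their groups (1.58 and 2.76). In WT replicate 1 on the normal diet, however, Cox6a2 was at its highest (5.03) while the muscle markers were low (−2.44). The common form Cox6a1 stayed within 7.96 to 8.62 in Glis3KO2 and 8.05 to 8.53 in WT on the normal diet, and within 5.58 to 6.05 in Glis3KO2 and 5.61 to 6.03 in WT on low iodine. Its genotype difference was −0.02 ± 0.17 on low iodine and 0.01 ± 0.15 on the normal diet.

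Cox6b2, the testis form of subunit 6b, had the smallest p of complex IV on low iodine. It was at 1.69, 2.39, 1.69 and 1.15 in Glis3KO2, against 2.51, 2.18, 2.85 and 2.46 in WT. The Glis3KO2 arrays were under all WT arrays except replicate 2, which was among them, and the difference was −0.77 ± 0.28 (limma adjusted p = 0.0787). On the normal diet it was at 0.04, 0.62, 0.85, 0.50 and −0.35 in Glis3KO2, against 0.02, 0.65, −0.05, 0.30 and −0.16 in WT. The common form Cox6b1 differed by −0.42 ± 0.22 on low iodine and by 0.14 ± 0.19 on the normal diet. Its levels were 2.43, 2.93, 3.54 and 3.23 in Glis3KO2, against 3.45, 3.21, 3.50 and 3.68 in WT on low iodine.

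Cox8c, another testis form, was the complex IV gene with the smallest p on the normal diet. It was at −5.10, −7.46, −5.15, −5.61 and −5.61 in Glis3KO2, against −7.58, −7.10, −6.57, −7.35 and −6.95 in WT. Cox8c was well above background on 3 of the 5 Glis3KO2 arrays and on 0 WT arrays. The mean of the 5 Glis3KO2 arrays was 1.44-fold above the WT arrays' detection limit. That mean includes arrays not well above background, and Glis3KO2 replicate 2 (−7.46) lay among the WT arrays. The difference was not called (limma adjusted p = 0.429), and its size is uncertain. The common form Cox8a differed by −0.12 ± 0.17 on low iodine and −0.06 ± 0.15 on the normal diet. Cox7a2, the liver form of subunit 7a, differed by 0.28 ± 0.23 on low iodine and 0.09 ± 0.20 on the normal diet, Cox7b by 0.04 ± 0.23 and 0.17 ± 0.21 on the same diets, and Ndufa4 by 0.11 ± 0.24 and 0.12 ± 0.21. None of these isoforms was called on either diet. In complex V, the ring subunit genes Atp5g1, Atp5g2 and Atp5g3 differed by −0.62 ± 0.25, −0.19 ± 0.21 and 0.07 ± 0.20 on low iodine and by −0.21 ± 0.22, 0.02 ± 0.19 and 0.08 ± 0.18 on the normal diet.

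The widest contrast in these genes lay between the low-iodine and normal-diet arrays, and it cannot be told apart from the array set. The 8 low-iodine arrays lay on slides 4 and 5 and were read on another scanner model and release of the reading software than the 10 normal-diet arrays on slides 1, 2 and 3. In Glis3KO2 thyroids 80 of 88 genes were called (8 higher and 72 lower on low iodine), where 74.4% of all genes were called (37.5% higher and 36.9% lower), and low iodine did not overlap the normal diet in 70 (79.5%, against 64.9% of all genes). In WT thyroids 80 of 88 were called (10 higher and 70 lower), where 75.9% of all genes were called (39.4% higher and 36.5% lower), and the diets did not overlap in 78 (88.6%, against 66.7%). The median difference, low iodine minus normal diet, was −1.49 in Glis3KO2 and −1.35 in WT, beside 0.01 and 0.08 over all genes. By complex it was −1.64 in Glis3KO2 and −1.44 in WT for I, −1.01 and −0.80 for II, −1.70 and −1.59 for III, −1.15 and −1.09 for IV, and −1.62 and −1.32 for V.

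**Figure D5:**
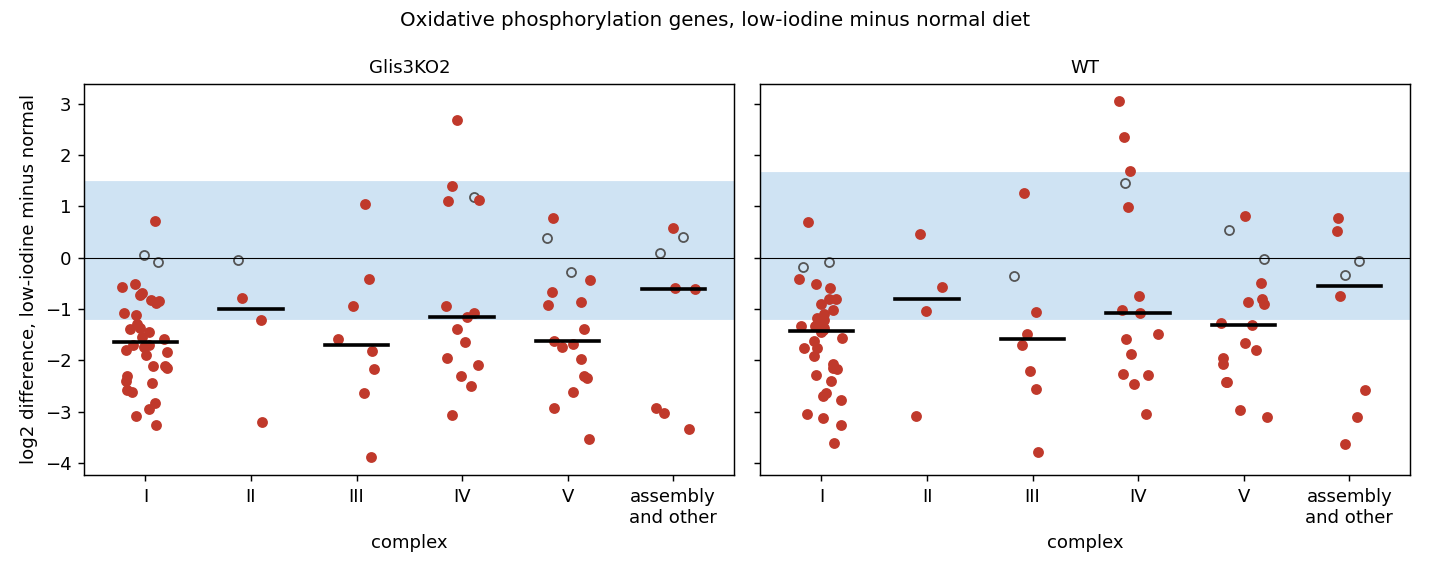
Difference of each gene between the low-iodine and the normal-diet arrays (vertical axis, log2, low iodine minus normal) by complex, in Glis3KO2 (left) and WT (right) thyroids. Circles are genes, filled where limma's adjusted p is under 0.05, black bars are medians and the blue band is the interquartile range of all 17924 genes; most genes are filled and lie below 0, and the highest point in both panels is Cox4i2, read near background on most normal-diet arrays.

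By the brightest probe of each gene, the lowest of these values was that of Uqcrc1, a core protein of complex III. It was at 2.04, 1.55, 2.0 and 1.90 on low iodine, against 5.02, 6.14, 6.13, 6.10 and 5.45 on the normal diet in Glis3KO2 thyroids. In WT thyroids it was at 1.92, 1.08, 1.80 and 1.95 on low iodine, against 5.40, 5.83, 5.69, 5.44 and 5.08 on the normal diet. The groups were far apart, with differences of −3.89 ± 0.25 in Glis3KO2 and −3.80 ± 0.25 in WT. The other probe of Uqcrc1 gave −2.66 in Glis3KO2 and −2.30 in WT, so its place as the lowest depends on the probe. A group of 8 genes was called higher on low iodine in both genotypes: Cox4i2, Cox6b1, Cox6b2 and Cox7c of complex IV, Ndufb5 of complex I, Uqcrb of complex III, Atp5mpl of complex V and the assembly factor Ndufaf2. For Cox4i2 the measured difference was 2.69 ± 0.41 in Glis3KO2 and 3.05 ± 0.41 in WT, but on the normal diet it was well above background on only 2 of 5 arrays of each genotype, so the size and rank of its difference are uncertain. Sdhd and the assembly factor Ndufaf5 were called higher in WT (0.46 and 0.77) and not in Glis3KO2 (−0.05 and 0.41), but the interaction was called for neither.

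Position on the brightness scale and the probe both moved with the diet values. Of the 88 genes, 67 were in the brightest of 10 equal bins of all genes, and the median of that bin was −0.84 in Glis3KO2 and −0.93 in WT, beside −1.58 and −1.49 for its oxidative phosphorylation genes. The dimmest bin had a median of 2.35 in Glis3KO2 and 3.08 in WT. For 19 genes more than 1 probe could be read, with 24 further probes in all. In 4 of these 24 the diet difference had the opposite sign to the gene's brightest probe in each genotype. The 3 probes of Ndufa12, an accessory subunit of complex I, gave −1.45, −0.36 and 1.81 in Glis3KO2 and −1.33, −0.11 and 2.13 in WT. The 2 probes of Atp5a1 gave −0.27 and −2.27 in Glis3KO2 and −0.02 and −2.03 in WT. Between the genotypes the probes of Atp5a1 stayed closer together: they gave 0.03 and 0.08 on low iodine and 0.28 and 0.31 on the normal diet. Over all 24 further probes the genotype difference had the opposite sign in 11 on low iodine and 9 on the normal diet. The part of brightness, probe and array set in the diet differences was not tested. Brown fat markers had lower means on low iodine, at −0.99 to −0.64 in Glis3KO2 and −1.30 to −0.26 in WT. On the normal diet they were at −1.18 (replicate 1) to 3.36 in Glis3KO2 and 0.82 to 2.51 in WT. Mean markers of follicular cells, white fat, C cells, fibroblasts, macrophages and airway epithelium were also lower on low iodine in both genotypes. Those of endothelium and parathyroid were higher in both. Those of skeletal muscle and thymus moved in opposite directions in the genotypes. The part of any of these tissues was not tested.

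Other genes of mitochondrial energy metabolism are set beside the share of all genes called. On the normal diet, where 1.39% of all genes were called, 1 of 38 further assembly factors was called, Ttc19 of complex III (0.55 ± 0.12, limma adjusted p = 0.0345), with 0 of 18 electron carriers and exchangers, 0 of 14 citrate cycle enzymes, 0 of 18 regulators of mitochondrial biogenesis and 0 of 78 mitochondrial ribosome genes. The mean level of the 18 regulators did separate the genotypes on the normal diet, at 0.33 to 0.58 on Glis3KO2 arrays and 0.11 to 0.27 on WT arrays. On low iodine it overlapped, at −0.29 to −0.15 and −0.41 to −0.18. On the normal diet the coactivator Ppargc1a differed by 0.20 ± 0.14 and Esrra, a nuclear receptor that drives these genes, by 0.42 ± 0.16 (limma adjusted p = 0.259).

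On low iodine, where 15% of all genes were called, 3 of the 38 assembly factors were higher in Glis3KO2 and 2 were lower (13.2%). Sdhaf1, which inserts iron-sulfur clusters into Sdhb, was higher by 0.60 ± 0.17 (limma adjusted p = 0.0276), the copper carrier Sco1 of complex IV by 0.71 ± 0.22 (adjusted p = 0.0358) and the complex III factor Uqcc3 by 0.54 ± 0.16 (adjusted p = 0.0332). The complex I factor Timmdc1 fell by 0.63 ± 0.19 on the log2 scale (limma adjusted p = 0.0384) and the complex III factor Uqcc2 by 0.68 ± 0.20 (adjusted p = 0.0324). Gpd2, which feeds electrons from glycerol 3-phosphate into ubiquinone, was the 1 electron carrier gene called, with a difference of −1.37 ± 0.23 (limma adjusted p = 9.07e-04) and an interaction of −1.63 ± 0.31 (adjusted p = 0.0189). Of the 18 regulators 2 were called (11.1%), the subunits of the mitochondrial DNA polymerase, in opposite directions: Polg at −0.66 ± 0.14 (limma adjusted p = 0.00454) and Polg2 at 0.93 ± 0.18 (adjusted p = 0.00276). Gpd2 was called in each of 29 alternatives and each polymerase gene in 28, but the 5 assembly factors in 19 to 22 and Ttc19 on the normal diet in 13. Of the mitochondrial ribosome genes, 5 of 78 were higher and 2 lower (8.97%), with a median of 0.04 (−0.22 without scaling), and of the citrate cycle enzymes 0 of 14 were called.

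Of 82 genes of the cytosolic ribosome, limma called 18 on low iodine as higher in Glis3KO2 (22%, against 7.81% of all genes) and 0 as lower (against 7.18%), with a median difference of 0.37, beside 0.01 for the oxidative phosphorylation genes. With median scaling or without scaling 0 of the 82 were called (medians 0.52 and 0.11), and 3 were called without WT replicate 2 or without Glis3KO2 replicate 4. Between the diets the ribosomal medians were −1.64 in Glis3KO2 and −1.97 in WT thyroids. Several marker lists moved with genotype on low iodine. Of endothelium, 3 of 4 were lower in Glis3KO2 (7.18% of all genes were called lower), with a mean of 0.62 ± 0.04 in Glis3KO2 and 1.71 ± 0.11 in WT thyroids (SD, n = 4 each). In the same order, fibroblast markers averaged 0.47 ± 0.59 and 1.41 ± 0.33, and macrophage markers −0.72 ± 0.35 and −0.16 ± 0.20. Follicular cell markers averaged 3.49 ± 0.21 and 3.27 ± 0.15. The part of these cells in these values was not tested.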

How the data were processed

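Thyroid RNA of 18 mice was read on 1-colour (Cy3) arrays. Per the labels' protocols, 50 ng of total RNA was amplified (NuGEN Ovation Pico) and 5 ug of product labelled. Per the submitters' processing notes, scans were read with Agilent Feature Extraction 12. Scanner and software differ by diet per the file headers: model G2600D with release 12.0.3.1 for low iodine, model G2505C with release 12.0.0.7 for the normal diet. The deposited value is the processed signal, a background-subtracted intensity. The deposited summary table holds the same intensity values, unscaled, uncentred and with no ratio taken.

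Control spots and outlier-flagged spots were dropped (82 probes lost), log2 was taken and each array's 75th percentile subtracted. Of 41174 probes, 28215 (68.5%) matched 1 gene of the RefSeq table (GRCm38.p6) by accession and 12959 none. A probe had to exceed background clearly on 4 or more of the 18 arrays, and a gene's brightest probe stood for it. Limma 3.58.1 (R 4.3.3; lmFit, eBayes) was fitted to 4 group means over all arrays, 17924 genes. The procedure was tested on simulated data. Groups came from sample titles.

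The genes and lists were chosen with earlier results of these data known. The naming rule took called genes, the smallest p of each complex and tissue isoform pairs; all other genes named with values were chosen after their values were seen, among them Ndufa1, Ndufs1, Ndufv2, Sdhb, Sdhc, Uqcrc1, Uqcrq, Atp5b and Atp5k. Outside the 88 genes, called list members and Glis3, Ppargc1a and Esrra are named. Alternatives covered background correction, scaling, probe filter and choice, slide, replicate number, prior and each array left out. The background alternative took median signals with normexp (offset 50). Results that name certain genes are not reported here.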

Additional observations from a re-analysis of the deposited data

Results flagged for a closer look

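In 5 of 124 groups of values tested, of named genes and of complex means, 1 array stood apart from the rest of its group by Dixon's test, a rate that chance gives in about 1 of 20 groups. Cox7a2l, the supercomplex factor, was at 3.302 in Glis3KO2 replicate 2 on the normal diet, against 3.813 to 3.927 in the other 4. Cox8c was at −7.462 in the same array, against −5.612 to −5.096. Sdha was at 2.267 in WT replicate 5 on the normal diet, against 2.521 to 2.621 in the other 4. In WT replicate 2 on low iodine, the array with the brightest median signal (191.5), Cox4i2 was at −1.949, against −3.307 to −3.153 in the other 3, and Ndufa4 at 4.606, against 5.03 to 5.082.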

How the results depend on the processing

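The number of arrays, 4 or 5 a group, limits what can be called, and dim genes such as Cox8c and Cox4i2 are read near background. The normal-diet genotype count (0 of 88) and the interaction count (0) were the same under every alternative run and without any 1 array. The low-iodine count, 1 by the main procedure, was 0 with normexp, with median scaling, over subunits alone and with the low-iodine arrays fitted alone. It was 2 without scaling (Atp5g1 and Cox6b2, both lower), with probes well above background on all 18 arrays, with the mean of a gene's probes and with slide as a block. It was 3 with a trended, robust prior and 8 with quantile normalization (4 higher and 4 lower). Leaving out 1 array gave 0 to 3: 0 without low-iodine WT replicate 1 or 4 or Glis3KO2 replicate 4, 3 without Glis3KO2 replicate 2, and without WT replicate 2 the 1 gene was Cox8c, not Cox7a2l. Among all genes tested, the low-iodine count ranged from 1642 with median scaling to 3843 with quantile normalization, beside 2687.

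Without scaling the low-iodine median of the 88 genes was −0.25 (I −0.22, II −0.27, IV −0.28, V −0.29), where all genes moved to −0.29 and 86.5% of calls were lower, against 47.9% with scaling. Quantile normalization gave −0.24 for complex V on low iodine and −0.23 for its interaction. The diet medians were −2.31 in Glis3KO2 and −2.33 in WT with median scaling, −1.94 and −1.68 without scaling, and −0.69 and −0.59 with quantile normalization, with the direction kept in each. The cause of these changes was not tested.

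Same-numbered Glis3KO2 and WT arrays carry no stated pairing, and their deviations correlated from 0.03 to 0.13 on low iodine and −0.04 to 0.32 on the normal diet. With the replicate number as a block the low-iodine count was 4 (Ndufa6, Ndufa7, Ndufs7 and Ndufv1, all higher), without Cox7a2l (limma adjusted p = 0.0884).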
